A study of Heterocephalus glaber and Mus musculus with 6 samples.

Results

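Hyaluronan is a long sugar polymer of the space between cells, and its level in skin is set by synthesis and breakdown. The 10 genes described here encode the 3 hyaluronan synthases (Has1, Has2 and Has3), the hyaluronidases Hyal1, Hyal2 and Hyal3, the hyaluronan-degrading or -binding proteins Cemip and Tmem2, and the hyaluronan receptors Cd44 and Hmmr. They were taken by gene symbol from the mouse tables, where 7 of the 10 had a row of their own, out of 42675 rows with an Ensembl identifier. GENCODE vM21 names the gene Tmem2 Cemip2, and it is called Cemip2 below. Has3, Hyal2 and Cd44 had no row under their own identifier and are not analysed here.

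The libraries came from keratinocytes, the main cells of the epidermis, from dorsal skin of FVB mice aged 7 to 8 weeks in normal homeostasis. The epidermis was separated with Dispase II, dissociated and sorted for CD49f, integrin alpha-6, which marks basal keratinocytes. All 3 mouse libraries form 1 group with no treatment or genetic change named in the labels. The same study holds 3 libraries from naked mole-rats, and the genes were read in the mouse tables alone, so no difference between species is given. The labels do not say whether the 3 libraries came from separate mice, and the spread between libraries 2 and 3 may be technical. Library 1 differed from both in Y-linked transcripts, with the values given below, which repeats of one RNA sample would not.

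Hyaluronan is made at the plasma membrane, where a synthase joins glucuronic acid and N-acetylglucosamine from UDP-sugars and extrudes the chain. It is cut at the cell surface and in the matrix, taken up through receptors such as CD44, and degraded in lysosomes. In epidermis it fills the narrow spaces between keratinocytes, turns over fast and rises after wounding. Naked mole-rats are known for tissues rich in very long hyaluronan, which has been tied to their HAS2 enzyme.

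The 3 synthases are paralogs, and stretches that their messages share set how well reads can be assigned to one of them. In the coding sequences of GENCODE vM21 (GRCm38), Has1 and Has2 were identical at 62.0% of aligned bases, and the longest run without a mismatch was 17 bases. Has2 and Has3 were identical at 68.8%, with a longest run of 23 bases. The longest run that all 3 share was 15 bases long. It is shown in capitals with the bases on either side, on the coding strand, at chr17:17844129-17844183 (minus strand) for Has1, chr15:56668161-56668215 (minus strand) for Has2 and chr8:106878278-106878332 (plus strand) for Has3.
Has1: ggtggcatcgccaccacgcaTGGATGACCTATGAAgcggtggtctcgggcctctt
Has2: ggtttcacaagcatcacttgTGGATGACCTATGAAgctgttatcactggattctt
Has3: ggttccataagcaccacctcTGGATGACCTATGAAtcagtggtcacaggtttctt
The flanking bases differ at many positions in each pair. Hyal1 and Hyal3 were identical at 59.8% of aligned coding bases and Cemip and Cemip2 at 62.7%, with longest shared runs of 15 and 13 bases.

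Totals were 52499080, 53465434 and 52970733 counts in mouse libraries 1, 2 and 3, of which 10.6% to 11.5% fell in Ensembl rows. CPM is the count per 1000000 counts of the library. Levels are given as CPM, which suits one gene across libraries, and as CPM per kilobase of annotated exon, which suits different genes in one library. Library 1 stood apart by sex-linked transcripts: the 9 Y-linked genes with a mean of at least 10 counts summed to 9932 counts there, 704 in library 2 and 558 in library 3. Of 15 basal keratinocyte markers only Itga2, Ass1 and Syt8 had a row, and Itga6, Krt5 and Krt14 did not, so the labelled cell type could not be checked by its defining genes. These are bulk libraries, in which fewer cells of a type and less RNA per cell cannot be told apart.

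Among the members with a row, the breakdown genes Hyal1 and Cemip2 were higher than the synthase genes Has1 and Has2 in each library, by CPM and per kilobase of exon. Hyal1 and Cemip2 together made up 89.3% to 93.9% of the members' counts in each library. Has1 and Has2 summed to 98, 63 and 35 counts in libraries 1, 2 and 3. Hyal1 and Hyal3 summed to 1749, 1996 and 1726 counts, and Cemip and Cemip2 to 3517, 2712 and 2063. Has3 had no row, and nothing is said of the total of synthase messages.

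**Figure D1:**
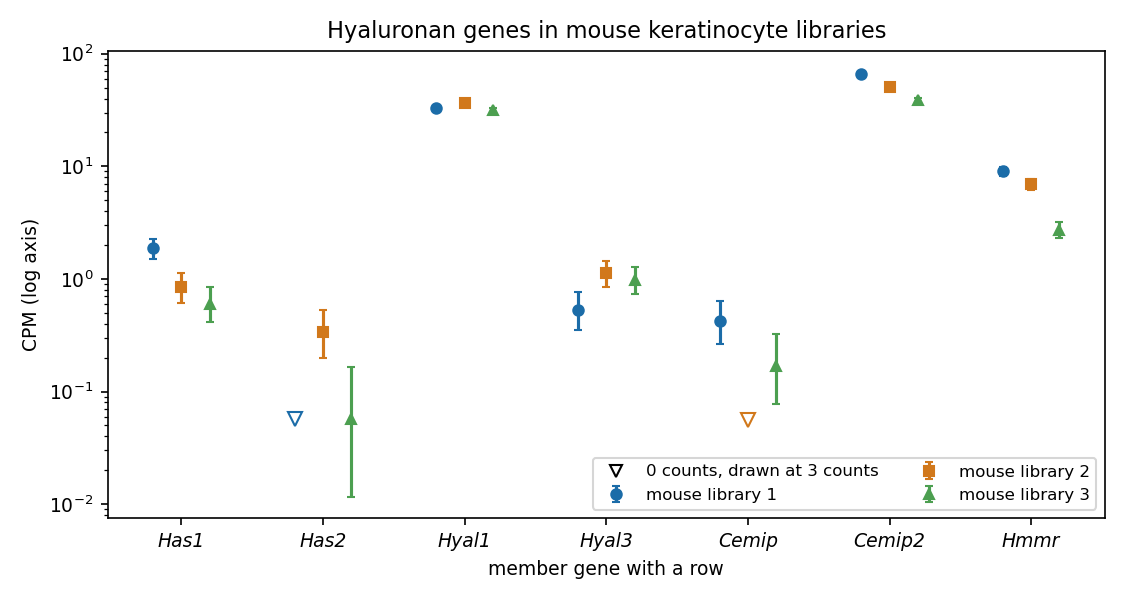
CPM (log axis) of the 7 members with a row in mouse libraries 1, 2 and 3, with exact Poisson 95% intervals of the counts as bars and open triangles for 0 counts, drawn at the level of 3 counts. Cemip2 and Hyal1 lay at 31.6 CPM or more in each library, and Has2 and Cemip each had 1 library with 0 counts.

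Has1 (ENSMUSG00000003665, chromosome 17, 17843323 to 17855205, minus strand, GRCm38) encodes one of the 3 synthases. It had 98, 45 and 32 counts in libraries 1, 2 and 3, or 1.87, 0.842 and 0.604 CPM. Library 1 was the highest, and the exact 95% counting intervals of libraries 2 and 3 overlapped. Has1 in library 1 was 2.22 times library 2 (95% counting interval 1.54 to 3.23) and 3.09 times library 3 (2.05 to 4.76), ratios that compare these libraries only. The mean was 1.10 ± 0.671 CPM (SD, n = 3). Without library 1 it was 0.723 CPM. The 6 fibroblast markers with a row, a cell type known to make hyaluronan, summed to 55.6, 67.7 and 57.4 CPM, with Pdgfrb and Lum at 0 counts in each library. Col6a3 made up most of that sum, with 49.6, 62.6 and 53.4 CPM. Of the list only Fbln1, with 5.49, 4.43 and 3.32 CPM, was highest in library 1 and in the order of Has1. Dcn had 26, 31 and 29 counts and Pdgfra 0, 5 and 6. Both were lowest in library 1, as was Col6a3. The part of fibroblasts in the level of Has1 was not tested. Col1a1, Col1a2 and Col3a1 had no row.

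Has2 (ENSMUSG00000022367, chromosome 15, 56665627 to 56694539, minus strand) encodes the synthase that mouse embryos need for heart development, and the one studied in naked mole-rats. It had 0, 18 and 3 counts in libraries 1, 2 and 3, or 0, 0.337 and 0.0566 CPM. Has2 had counts in libraries 2 and 3, and the 0 of library 1 was set at a floor of 3 counts, or 0.0571 CPM. The upper end of the exact 95% interval of that 0 was 0.0703 CPM. Library 3 had no more than 3 counts, and the ratio of library 1 to library 3 had an upper 95% limit of 2.44. Libraries 1 and 3 were thus not told apart. Has2 in library 2 was 5.89 times the floor of library 1, with its own 18 counts taken as exact. With the counting error of both libraries, the ratio of library 1 to library 2 had an upper 95% limit of 0.232. The ratio of library 2 to library 3 was 5.94, with a 95% counting interval of 1.74 to 31.5. The mean of 0.131 ± 0.180 CPM (SD, n = 3) rests largely on library 2, and without it the mean was 0.0283 CPM. The antisense transcript Has2os, which overlaps 182 exon bases of Has2 on the other strand, had 0 counts in each library.

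Hyal1 (ENSMUSG00000010051) encodes the lysosomal hyaluronidase, which cuts chains to short oligosaccharides, and was the steadiest member. It had 1721, 1936 and 1674 counts in libraries 1, 2 and 3, or 32.8, 36.2 and 31.6 CPM. The libraries differed little, and the highest, library 2, was 1.15 times the lowest, library 3 (95% counting interval 1.07 to 1.22). The mean was 33.5 ± 2.39 CPM (SD, n = 3). Hyal1 lies on chromosome 9, from 107576927 to 107581710 on the plus strand. There it overlaps Naa80, an N-terminal acetyltransferase gene of the same strand, and the start of Hyal3. Of 3777 exon bases of Hyal1, 1961 (51.9%) are also exon of Naa80 or Hyal3, so reads could be counted for either gene and the level of Hyal1 is uncertain to that extent. Naa80 had 969, 970 and 1207 counts.

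Hyal3 (ENSMUSG00000036091, chromosome 9, 107580818 to 107587359, plus strand) encodes a family member with little hyaluronidase activity of its own. It had 28, 60 and 52 counts in libraries 1, 2 and 3, or 0.533, 1.12 and 0.982 CPM. Library 1 was the lowest, at 0.475 times library 2 (95% counting interval 0.292 to 0.756) and 0.543 times library 3 (0.330 to 0.876). The mean was 0.879 ± 0.308 CPM (SD, n = 3). Of its 1948 exon bases 159 are also exon of Hyal1 on the same strand, and 118 of those 159 are exon of Naa80 too. Hyal2, a hyaluronidase anchored to the cell surface, lies beside them on chromosome 9 from 107567945 to 107572779 and had no row.

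**Figure D2:**
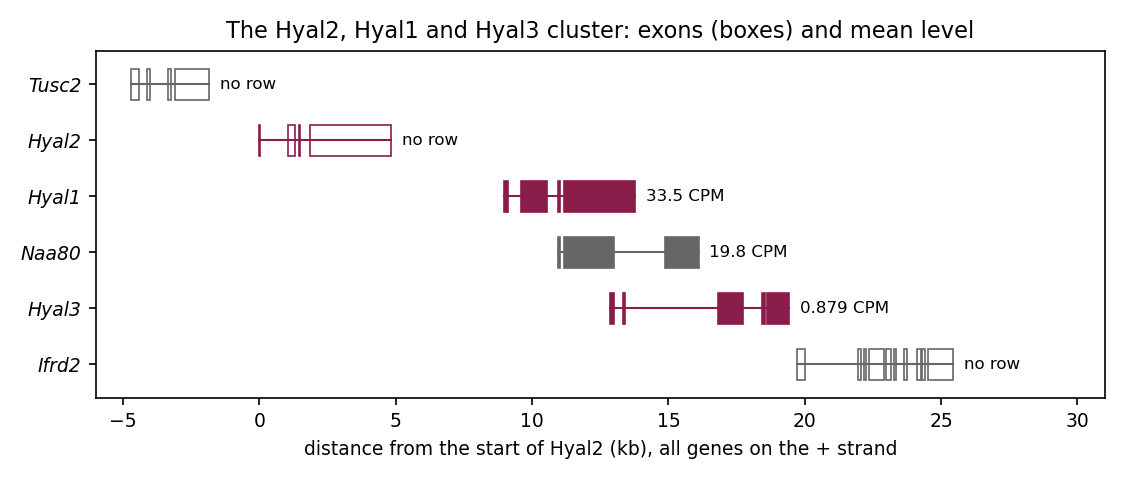
Exons (boxes, merged over transcripts) of Hyal2, Hyal1, Naa80, Hyal3 and the genes on either side, by distance from the start of Hyal2 in kilobases, with the mean level over 3 mouse libraries. Filled boxes have a row in the mouse tables and open boxes do not. The exons of Hyal1 and Naa80 overlap, and Hyal1 had 33.5 CPM, Naa80 19.8 CPM and Hyal3 0.879 CPM.

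Cemip2 (ENSMUSG00000024754, chromosome 19, 21778342 to 21858360, plus strand) encodes a transmembrane protein reported in mice as a cell-surface hyaluronidase, and was the highest member by CPM. It had 3495, 2712 and 2054 counts in libraries 1, 2 and 3, or 66.6, 50.7 and 38.8 CPM. All 3 counting intervals were apart, with library 1 highest and library 3 lowest. Cemip2 in library 1 was 1.72 times library 3 (95% counting interval 1.63 to 1.81). The mean was 52.0 ± 13.9 CPM (SD, n = 3), and 44.8 CPM without library 1. An antisense gene shares 97 exon bases with it and had 28, 27 and 33 counts.

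Cemip (ENSMUSG00000052353, chromosome 7, 83932857 to 84086502, minus strand), whose protein binds hyaluronan and takes part in its depolymerization, was near the limit of detection. It had 22, 0 and 9 counts in libraries 1, 2 and 3, or 0.419, 0 and 0.170 CPM. Cemip in library 1 was 7.47 times the floor of 3 counts set for the 0 of library 2, with its own 22 counts taken as exact. The upper end of the exact 95% interval of that 0 was 0.0690 CPM. With the counting error of both libraries, the ratio of library 2 to library 1 had an upper 95% limit of 0.179. Against library 3 it was 2.47 times as high (95% counting interval 1.09 to 6.09). Its order differed from that of Has2, which had its 0 in library 1 and its highest count in library 2.

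Hmmr (ENSMUSG00000020330, chromosome 11, 40701395 to 40733422, minus strand) encodes RHAMM, a hyaluronan-binding protein that also works on the mitotic spindle. It had 476, 369 and 145 counts in libraries 1, 2 and 3, or 9.07, 6.90 and 2.74 CPM. Library 3 was the lowest, at 0.302 times library 1 (95% counting interval 0.249 to 0.364) and 0.397 times library 2 (0.325 to 0.482). The mean was 6.24 ± 3.22 CPM (SD, n = 3), and 7.98 CPM without library 3. The 17 mitosis genes with a row, out of 20 listed, were all lowest in library 3 and summed to 252, 221 and 105 CPM in libraries 1, 2 and 3, with none at 0 counts. The share of all named genes lowest in library 3 was not counted. Of the 17, 11 were past 2-fold from the mean of the other libraries there, beside 10.4% of 9965 named genes. The median log2 difference was −1.14 for the 17 and −0.098 for those 9965. The part of the mitosis genes in the level of Hmmr was not tested. Cd44, the main hyaluronan receptor of keratinocytes (chromosome 2, 102811141 to 102901665), had no row, nor did Has3 (chromosome 8, 106870242 to 106884566).

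Per kilobase of exon the members fell in the order Hyal1, Cemip2, Hmmr, Hyal3, Has1, Has2 and Cemip. Their mean levels were 8.88 ± 0.634 CPM per kilobase for Hyal1 and 6.11 ± 1.64 for Cemip2 (SD, n = 3 each). Hmmr had 1.15 ± 0.592, Hyal3 0.451 ± 0.158 and Has1 0.244 ± 0.149 CPM per kilobase. Has2 had 0.0309 ± 0.0425 and Cemip 0.0160 ± 0.0172 CPM per kilobase. The library values of Hyal1 and Cemip2 did not overlap, nor did those of Cemip2 and Hmmr or of Has1 and Has2. Hmmr and Hyal3 overlapped, as did Hyal3 and Has1, and Has2 and Cemip, so the ranges of those neighbours did not separate them. Within libraries, Hmmr was above Hyal3 in 3 of 3, although both were at 0.504 in library 3 to 3 digits. Hyal3 was above Has1 in 2 libraries and Has2 above Cemip in 1. With the longest transcript in place of all exons the order was the same, and without library 2 Cemip stood above Has2.

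Against all 14578 protein-coding genes with a row, Hyal1 lay at the 98.5th percentile of the level per kilobase and Cemip2 at the 93.7th. Hmmr lay at the 71.4th, Hyal3 at the 65.8th, Has1 at the 62.4th, Has2 at the 51.0th and Cemip at the 47.7th percentile. Of these genes 41.5% had 0 counts in all 3 libraries, which places even single counts near the middle. Only 66.3% of annotated protein-coding genes had a row, and the percentiles hold among those alone. The missing genes were not spread evenly over the marker lists. Rows were there for 3 of 15 basal keratinocyte markers and for 7 of 7 endothelial markers. Percentiles among all annotated genes could thus differ.

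**Figure D3:**
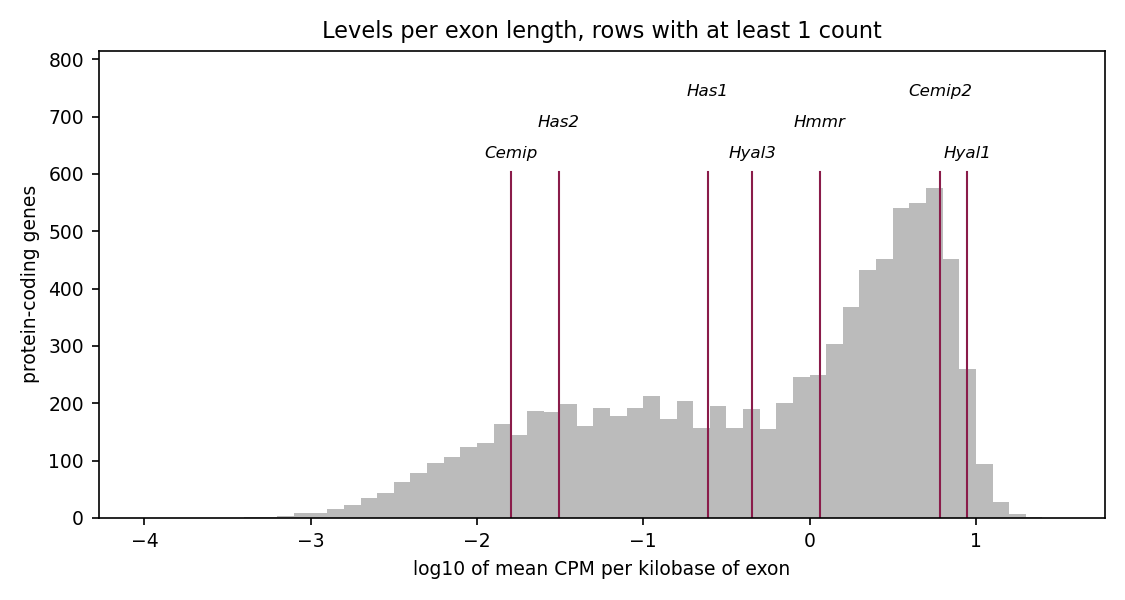
Number of protein-coding genes (vertical axis) by the log10 of mean CPM per kilobase of exon over 3 mouse libraries, for genes with at least 1 count, with lines at the 7 members. Hyal1 and Cemip2 lie at the upper end and Has2 and Cemip in the low tail.

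The members also differed in how far libraries lay apart beyond counting error, measured as the biological coefficient of variation (BCV) from edgeR over 8906 Ensembl rows that passed its expression filter. Over all these rows the common BCV was 0.180 and the median for single rows 0.198. Has1 had 0.366, Hmmr 0.315 and Hyal3 0.306, at the 97.7th, 93.2nd and 91.7th percentile of all rows. Cemip2 had 0.148, at the 36.3rd percentile, and Hyal1 0.0925, at the 7.24th. Has2 and Cemip were below the filter. Both members with the most counts were steadier than the median row, and the 3 lower ones that passed were less steady. Without library 3 the BCV of Hmmr was 0.133 and that of Cemip2 0.0823, and without library 1 that of Cemip2 was 0.0983. That of Has1 was 0.280 without library 1 and 0.252 without library 3, and that of Hyal3 was 0.256 without library 1. The percentiles were taken over all rows and not matched for level.

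For each library the log2 CPM of a gene, with 0.5 added to the count, was set against the mean of the other 2 libraries. The 6 members with a mean of at least 10 counts were compared with all 9965 named genes at that level, which Has2 with a mean of 7 counts did not reach. A difference of 2-fold is a size and not a test, and the values of 1 gene in the 3 libraries depend on one another.

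In library 1, 3 of the 6 members were at least 2-fold higher than in the others (Has1, Cemip and Hmmr), where 5.13% of all named genes were. Cemip, with 22, 0 and 9 counts in libraries 1, 2 and 3, reached the required mean count only through library 1. Its place among the 6 was thus not independent of its high value in library 1. With a mean of at least 50 counts required, Has1 and Hmmr were the members past 2-fold in library 1. None of the 6 was 2-fold lower there (4.17% of all genes). In library 2, 0 of 6 were 2-fold higher (4.84% of all genes) and Cemip was lower (2.91% of all genes). In library 3, Has1 and Hmmr were 2-fold lower (6.81% of all genes) and Cemip higher (3.54% of all genes). The log2 difference of Has1 was 1.38 in library 1 and −1.04 in library 3, and that of Hmmr 1.06 and −1.53. Cemip2 had 0.59 in library 1 and −0.58 in library 3, in the same order but within 2-fold. Hyal1 stayed between −0.12 and 0.17. Hyal3 went the other way in library 1, with −0.96. The median over the 6 members was 0.82, 0.084 and −0.35 in libraries 1, 2 and 3, beside 0.047, 0.073 and −0.098 over all 9965 genes. The difference of Has1 in library 3 fell under 2-fold with TMM or DESeq2 scaling, at −0.98 with either, and without library 1 it was −0.47. The sizes of the Cemip differences rest on its 0 count in library 2. Without library 2 the difference in library 1 was 1.26, still past 2-fold. In library 3 the value was 0.67 with 2 added to each count and −1.26 when library 2 was left out. The 2-fold call of Hmmr in library 1 was lost when library 3 was left out, at 0.39. Among the 6595 protein-coding genes alone, 3.35% were 2-fold higher and 3.56% lower in library 1. The shares were 3.79% higher and 1.71% lower in library 2, and 3.09% higher and 4.96% lower in library 3.

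**Figure D4:**
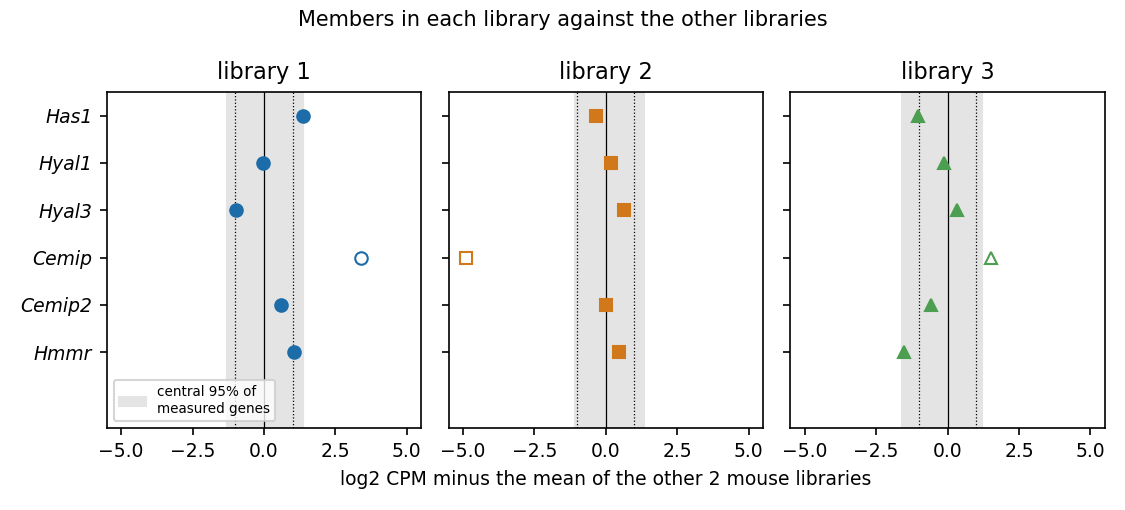
Log2 CPM of 6 members in each mouse library minus the mean of the other 2 libraries. Grey bands hold the central 95% of 9965 named genes, dotted lines mark 2-fold, and open symbols mark Cemip, whose sizes rest on a 0 count in library 2. Hyal1 lies near 0 in each library, and Hmmr is lowest in library 3, at −1.53.

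Other named genes with a mean of at least 100 counts, 5573 in all, were ranked by how closely their differences between the 3 libraries matched a member, as the distance between centred log2 CPM values. With 3 libraries many genes match by arithmetic alone. For Hyal1, 771 genes lay within a distance of 0.1, of which Tedc2, Sepsecs and Edem3 were nearest. Cemip2 had 48 such genes, with Lrrc31, Gm44751 and 2610035D17Rik nearest. Hmmr had 6, led by Dpysl3, Kif14 and Aspm, at distances of 0.031, 0.037 and 0.046. Aspm, a spindle-pole protein gene that is also among the 17 mitosis genes, had 28.4, 21.0 and 8.21 CPM in libraries 1, 2 and 3. Hyal3 also had 6, led by 4921531C22Rik, Irgm2 and Rps15a-ps4. Has1 had 0 genes within 0.1, and the nearest were Fras1, Tslp and Zfp783, at 0.14 to 0.22. The nearest to Cemip was Gm49380 at 1.98. Cemip had a mean of 10.3 counts and a 0 in library 2, and no gene of so low a level was compared.

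Genes that supply the sugars of hyaluronan stayed within 2-fold, as most named genes did. The list of precursor genes has 14 members, of which 8 had a row and 7 a mean of at least 10 counts, and 0 of the 7 passed 2-fold in any library. In libraries 1, 2 and 3, 9.30%, 7.75% and 10.4% of all 9965 named genes passed 2-fold in either direction, so a count of 0 among 7 is near that background. The aminosugar branch held Gfpt1, its rate-limiting amidotransferase, at 22.3 ± 0.900 CPM (SD, n = 3), and Gnpnat1, its acetyltransferase, at 1.11 ± 0.215 CPM. Uap1, which makes UDP-N-acetylglucosamine, had 24.7 ± 1.54 CPM, and its relative Uap1l1 15.7 ± 1.01 CPM. The phosphoglucomutase genes Pgm1 and Pgm2 had 13.3 ± 0.733 and 8.01 ± 0.722 CPM. Hk2, a hexokinase, varied most, with 9.94, 13.7 and 7.49 CPM in libraries 1, 2 and 3. Gfpt2 had 0 counts, and Ugdh, which makes UDP-glucuronic acid, had no row, nor did Ugp2, Pgm3, Hk1, Gpi1 and Nagk.

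Of the other genes of hyaluronan breakdown, the lysosomal Gusb had the most counts. Gusb, the beta-glucuronidase that trims hyaluronan fragments, had 8.07 ± 0.399 CPM (SD, n = 3). Hexa, a hexosaminidase subunit, had 1.99 ± 0.420 CPM. Hyal4, named as a hyaluronidase but known as a chondroitin-cutting enzyme in humans, had 14, 26 and 45 counts in libraries 1, 2 and 3, and was past 2-fold in libraries 1 and 3 (log2 differences of −1.24 and 1.22). The testis hyaluronidase genes Spam1 and Hyal5 had 0 counts, and Hyal6 had 5, 0 and 0.

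Most other receptors and matrix partners had few counts or 0. The vascular and lymphatic uptake receptors Stab1 and Stab2 had 47, 37 and 54 and 21, 31 and 0 counts, and the lymphatic receptor Lyve1 had 0, 4 and 0. The 7 endothelial markers had summed levels of 0.743, 0.711 and 0.472 CPM in libraries 1, 2 and 3, with Kdr, Cdh5, Emcn and Tie1 at 0 counts in each. Vwf had 25, 24 and 14 counts, Pecam1 10, 14 and 11, and Tek 4, 0 and 0. Layn, a hyaluronan receptor, and Tlr4 had 0 counts, and Tlr2, which hyaluronan fragments can engage, had 11, 22 and 22. Ptprj, a receptor phosphatase in the same list, had 13.6 ± 1.17 CPM (SD, n = 3), and Lrp1 had no row. All 20 matrix partner genes had a row, and 11 of them had 0 counts, among them Tnfaip6, Acan, Hapln1 and Hapln3. Of all protein-coding genes with a row, 41.5% had 0 counts in all 3 libraries, so counts of 0 were common beyond this list.

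Itih5 and Habp4 stood out among the matrix partners. Itih5, an inter-alpha-trypsin inhibitor heavy chain gene of the family whose proteins are linked to hyaluronan, had 30.2, 56.7 and 36.9 CPM in libraries 1, 2 and 3. Library 2 was the highest and the difference stayed within 2-fold, at 0.76 on the log2 scale. Habp4, an intracellular hyaluronan-binding protein gene, had 24.7 ± 1.51 CPM (SD, n = 3). Vcan, versican, had 20, 37 and 20 counts, and Impg2, of the retinal matrix, 40, 46 and 43.

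Ligands of the EGF receptor, a receptor through which keratinocytes can raise hyaluronan synthesis, did not share one order. Hbegf had 32.3, 24.8 and 17.7 CPM in libraries 1, 2 and 3, the order of Has1 and Cemip2. Btc had 3.07, 4.10 and 7.48 CPM and was past 2-fold in library 3, at a log2 difference of 1.07. Areg had 6.65, 6.96 and 9.51 CPM and Ereg 10.3, 11.1 and 12.8 CPM, both highest in library 3. Tgfa had 9.90, 14.6 and 11.4 CPM, and Egf 1.41, 1.55 and 1.08 CPM. Smad3, a mediator of TGF-beta signals, had 25.6 ± 3.85 CPM (SD, n = 3). Egfr, Smad2, Klf4 and Sp1 had no row.

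Over the 5 lists together, 62 genes, 49 had a row and 25 a mean of at least 10 counts. The median log2 difference over these 25 was −0.020, 0.078 and −0.091 in libraries 1, 2 and 3, beside 0.047, 0.073 and −0.098 over all named genes. In libraries 1, 2 and 3, 2, 1 and 3 of the 25 were past 2-fold in either direction, near the 9.30%, 7.75% and 10.4% of all named genes.

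**Figure D5:**
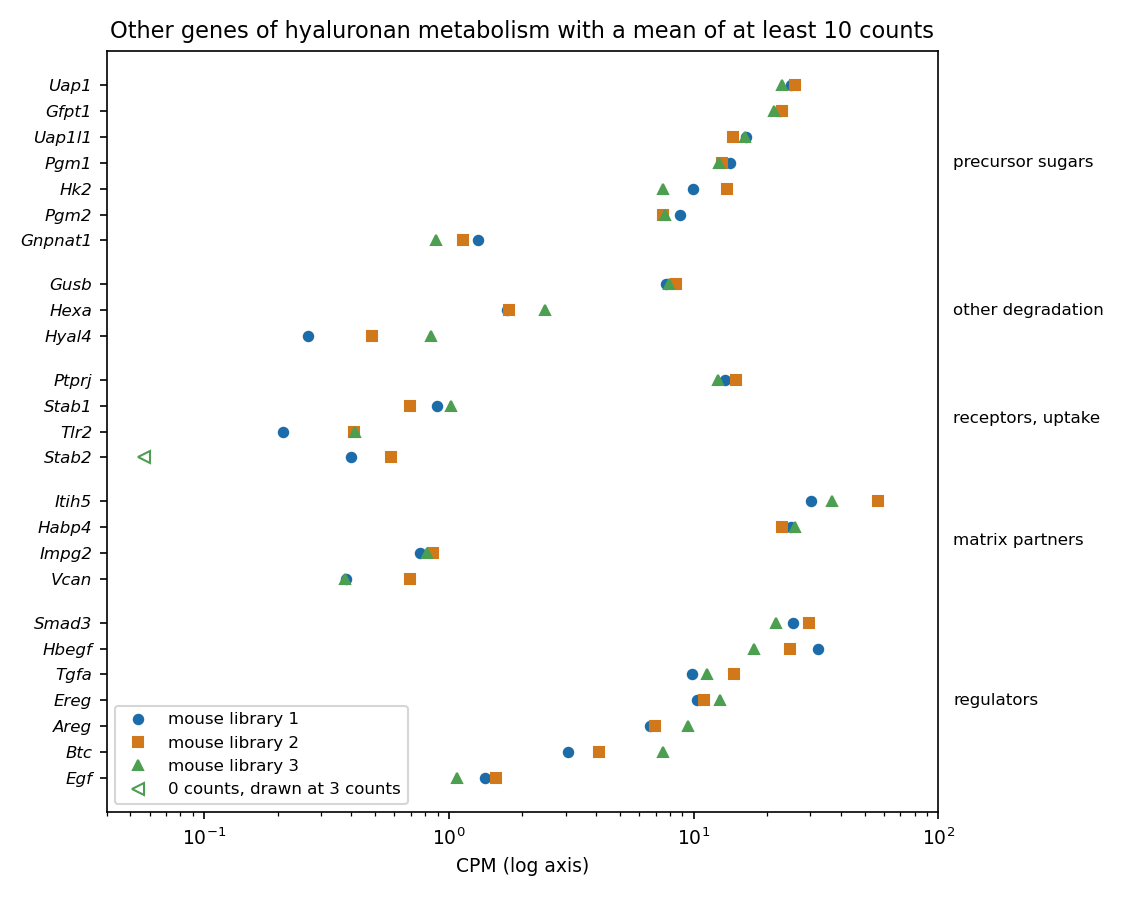
CPM (log axis) of the 25 other genes of hyaluronan metabolism with a mean of at least 10 counts in mouse libraries 1, 2 and 3, by list, with an open triangle at the level of 3 counts for the 0 of Stab2 in library 3. Most precursor sugar genes lie close together across libraries, and Hk2, Hyal4, Stab2, Itih5 and Btc are spread wider.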

How the data were processed

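The authors deposited whole-number counts per gene or assembled locus for each library, and the sample labels call them raw. Tools listed in the submitters' processing notes are TopHat2, Bowtie2, FastQC and cutadapt, with mm10 as the build. The counting program, and whether it used strand, is not given in the sources used here. The libraries were strand-specific and rRNA-depleted per the labels' protocols. Each mouse table has 54364 rows, 11689 of them assembled loci without names, and reads of a gene without a row may stand there.

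Mouse identifiers were joined to GENCODE vM21 (GRCm38, the assembly behind mm10), which gave 42321 a symbol of their own. CPM used all counts of a library. BCV came from edgeR 4.0.16 with TMM factors in R 4.3.3, and size factors from DESeq2 1.42.0. Other steps used Python 3.11.15 with biopython 1.88 for alignments. Scripts were tested on simulated data. With 1 group there is no contrast and no p-value. Intervals cover counting error only. In mouse library 1, 641 rows held a count of 1 and 781 a count of 3, so a count may not always be a single read and the intervals may be too narrow.

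Named were all members, list genes with a mean of at least 10 counts and the 3 genes nearest each such member. Some genes under 10 counts or without a row, and markers, were named as examples. The members and lists were chosen with earlier results of these data known.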

Additional observations from a re-analysis of the deposited data

How the results depend on the processing

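The summed level of the 7 members was 94.1 ± 18.2 CPM (SD, n = 3), 85.5 to 103.7 CPM when each library was left out, and 838 CPM with counts in Ensembl rows as the total. Of 6 members, 3 passed 2-fold in at least 1 library, and 2 to 4 did over the alternatives. Has2 was counted too without a filter, and Hyal3 and Cemip were left out at a mean of at least 50 counts. In libraries 1, 2 and 3, 9.30%, 7.75% and 10.4% of all 9965 named genes passed 2-fold. Their share past 2-fold in at least 1 library was not counted. The median of the wider lists ranged from −0.14 to 0.013 in library 1, 0.095 to 0.14 in library 2 and −0.095 to −0.013 in library 3 when a library was left out. With Ensembl totals it was 0.019 in library 3, where that scaling moved all genes by 0.11. The common BCV was 0.272 without a filter and 0.154 to 0.211 when a library was left out. The Cemip difference in library 3 ranged from −1.26 without library 2 to 4.26 without library 1. The causes were not tested. Of 178 alternative values, 154 moved by at most the spread between libraries, or by at most 1.5 times for counts. Another 23 moved further and 1 was reversed, the Cemip difference in library 3 without library 2. With 3 libraries, leaving 1 out cannot move a mean level past that spread. Mean levels with a library left out were thus bound to be among the 154 and say nothing of stability. The same bound holds for the log2 difference of a single member, which could leave the 154 only by a change of sign. Those values with a library left out thus say nothing of stability either. The length of the longest transcript and the protein-coding background were chosen after seeing the data. Members under 100 counts are limited by depth. No paired analysis was possible because the members were read in 1 group of mouse libraries.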

Other observations

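Has1 and Hmmr each lie close to a gene of the other strand. Spaca6, a gene of sperm and egg fusion 314 bases from Has1, had 1161, 946 and 812 counts in mouse libraries 1, 2 and 3, in the same order as Has1. The share of all named genes in that order was not counted, and a link between Spaca6 and Has1 was not tested. Nudcd2, 245 bases from Hmmr, had 508, 648 and 527 counts, with no low value in library 3.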
